A study of Xenopus laevis with 17 samples.

Results

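A set of 33589 chromatin regions was bound by the forkhead transcription factor Foxn4 when it was expressed alone in frog ectoderm, and overlapped no region called when Foxn4 was expressed together with Multicilin. The regions are peaks of chromatin immunoprecipitation followed by sequencing (ChIP-seq), taken from the authors' list for Foxn4 alone, which holds 65258 peaks. Each shares no base with any of the 29673 peaks of the authors' list for Foxn4 with Multicilin. Each also has its centre more than 1000 bp from the start of every annotated gene model, and in this sense is distal. The members were thus selected on the peak calls of both ChIP libraries and on position. These regions are called members below. Of the other peaks of the same list, 19055 were distal and shared with the Multicilin list, 5832 lay within 1000 bp of a start and were not shared, and 6782 lay within 1000 bp and were shared. The members lay on 2871 scaffolds of the version 7.1 assembly of the Xenopus laevis genome. Of them 1818, or 5.41%, lay on scaffolds that carry no gene model and so could not be measured against a start.

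Distal regions bound by transcription factors include enhancers, stretches of DNA that raise the transcription of a gene from a distance, and a factor can also occupy DNA with no effect on any nearby gene. Foxn4 is best known from the retina and spinal cord, where it acts in progenitor cells upstream of the choice of neuron types and of Notch ligands. In the embryonic frog skin, Multicilin is a coiled-coil protein that switches progenitors to the multiciliated fate by acting with E2F factors, and Foxj1 is the forkhead factor that drives genes of motile cilia.

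The study asked how Foxn4 and Foxj1 act in multiciliated cells. All samples were animal caps, the ectoderm dissected from the top of X. laevis embryos at stage 10, with 20 caps per condition for RNA sequencing. In caps given inducible proteins, dexamethasone at 20 µM was added at mid-stage 11, and tissue was harvested 9 h later at 22 °C, near stage 18. The ChIP libraries were made from caps injected with Foxn4-GFP-HGR, a fusion of Foxn4 with GFP and the human glucocorticoid receptor, either without (n = 1) or with (n = 1) RNA for Multicilin. Foxn4 thus came from an injected construct in both, at a level that the labels do not give. RNA was sequenced in 9 libraries, every one from caps injected with RNA for Multicilin. These were a control with Multicilin only (n = 3), Multicilin with Cas9 and a guide RNA against foxn4 (Foxn4 CRISPR, n = 2), Multicilin with a foxn4 antisense morpholino (n = 2), and Multicilin with Cas9 and a guide RNA against foxj1 (Foxj1 CRISPR, n = 2). The labels name the injected RNA as MCIDAS-HGR, a receptor fusion, for the control and as Multicilin mRNA for the perturbed groups. No RNA group had Foxn4 alone, so the members, found without Multicilin, are set here beside RNA from caps that all had it.

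The libraries differed in depth and in enrichment, and 1 RNA library stood apart. Per the file headers, the Foxn4 alone ChIP library had 7387992 tags against 4911853 with Multicilin, and 33.51% of its tags lay in peaks against 11.86%. RNA libraries held between 8265687 and 22041279 estimated counts. The control libraries were re-used from an earlier study, so study and treatment cannot be told apart in any RNA comparison. Control library 2 differed most from its group, with a chi-square per degree of freedom of 95.16 and 131.69 against control libraries 1 and 3, which had 52.43 between them. Its FOXN4 RNA on scaffold 44061 was at 78.9 CPM (a count scaled to the total of its library) against 388 and 510.4, and ACTA1, a muscle actin, was at 20.0 CPM on scaffold 272406 against 3.30 and 3.27. The caps carried RNA of epidermal genes, with E-cadherin (CDH1, scaffold 57875 at 2476208) between 618 and 1039 CPM in the 9 libraries. Other models of CDH1 were lower. Epidermal markers were not uniform over the libraries. The TP63 model with more members was at 9.20 to 83.3 CPM in the control and 2.29 and 5.15 with Foxn4 CRISPR. It was at 0.883 and 0.280 with the morpholino and 0.289 and 0.956 with Foxj1 CRISPR. The GRHL3 copies went the other way, as given below. The muscle factors MYOD1 and MYF5 were at or under 1.91 CPM in all 9. FOXN4 RNA on scaffold 44061 was not called in the Foxn4 comparisons, at 354 and 379.7 CPM with Foxn4 CRISPR and 444 and 505 CPM with the morpholino (edgeR adjusted p = 0.844 and 0.438), within the range of the controls. Small deletions and morpholinos need not change the amount of the RNA, so this does not check the labels. FOXN4 had 1 linked member in all, of 17.6 tags and 24748 bp from the start of its model on scaffold 143664.

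Members had a lower median height than the shared peaks, and the heights of both overlapped. The authors give each peak a height as tags scaled to a library of 10000000 tags, and all heights below are on this scale. The members had a median height of 21.7 tags, with 10% under 13.5 and 10% over 51.4, and reached 517.1. In unscaled tags the median was 16. Distal peaks that were shared had a median height of 60.9, and promoter peaks had medians of 25.7 when not shared and 54.1 when shared. Of the 9051 distal peaks under 15 tags, 93.3% were members, and of the 6891 between 40 and 60 tags the share was 49.6%. Among the 1814 distal peaks of 200 tags or more, 48 were members, or 2.65%. The choice of members used the peak calls of both libraries, so these heights describe the set and were not tested.

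**Figure D1:**
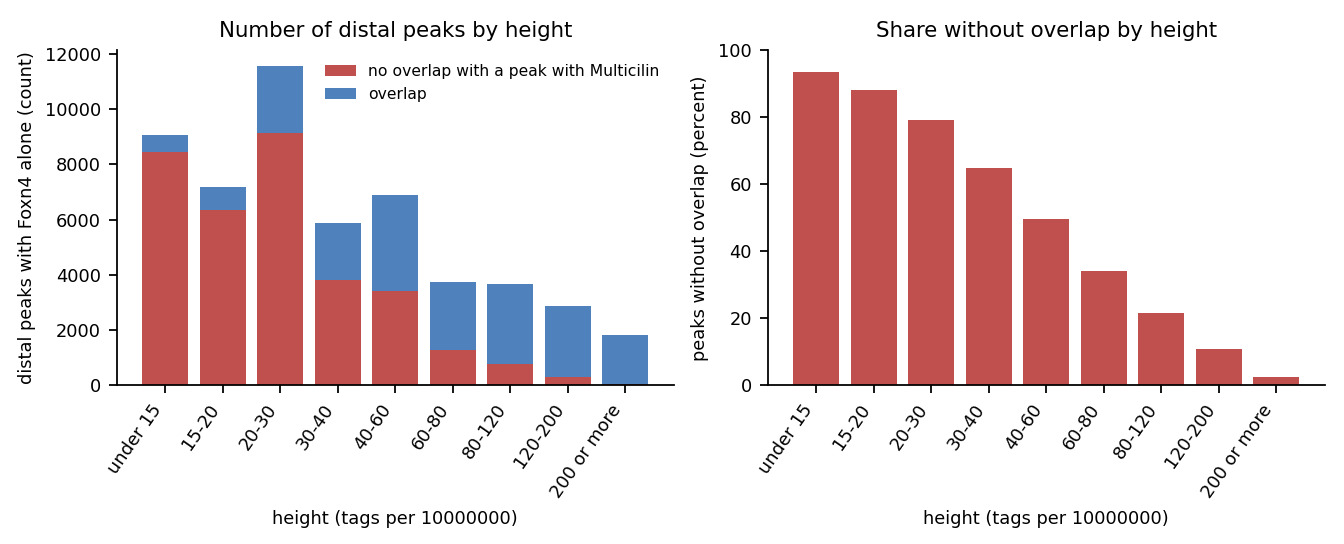
Number of distal peaks with Foxn4 alone by height in tags per 10000000 (left, red without and blue with an overlapping peak in the Multicilin list) and the percentage without overlap in each class of height (right). The percentage falls from 93.3% under 15 tags to 2.65% at 200 tags or more.

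The listed peak heights were mostly lower in the Multicilin library at the shared places. At the 19055 shared distal peaks, the height with Multicilin was a median of 0.533 times that of Foxn4 alone. It was below that of Foxn4 alone at 83.4% of them. The peak size in the file headers was 340 bp for Foxn4 alone and 276 bp with Multicilin. The ratio and the projection made from it below were not corrected for this difference. Its part in the ratio was not tested. The file header gives a threshold of 8 tags for the Multicilin library, which is 16.3 on the common scale. It was not a strict floor for the listed heights, since the lowest peak there had 12.2. In the Foxn4 alone library itself, 10772 members (32.1%) were lower than 16.3. If each member had been scaled by the median ratio of 0.533, 23922 (71.2%) would have been below 16.3 and 9667 above. That ratio came only from peaks called in both lists, while members were selected for having no overlapping Multicilin peak. The ratio at the members was not measured, so the projection does not tell how many of them could have been called. The peak lists hold no tag counts outside called peaks, so occupancy at the members with Multicilin was not measured, and their absence from that list cannot be told apart from its lower depth and enrichment. In the opposite direction, 3836 Multicilin peaks (12.9%) overlapped none of the Foxn4 alone peaks, against 60.4% of Foxn4 alone peaks that overlapped none with Multicilin.

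Members differed in how near they lay to a peak that was called with Multicilin. Of the 31924 members on a scaffold with such a peak, the median gap was 18938.5 bp, and 20970 (65.7%) were more than 10000 bp away. A gap of 500 bp or less was found for 486 members. The 48 members of 200 tags or more had a median gap of 2591.5 bp, and 35 of them (72.9%) had a Multicilin peak within 10000 bp. Among the 8448 members under 15 tags the median gap was 27433 bp and the share 21.1%. Some members also lay near each other, with 12791 (38.1%) within 10000 bp of another member. The median distance to the nearest other member was 14715.5 bp, and 1557 were the only member on their scaffold. This spacing was not compared with that of other peaks.

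The 10 members with the highest peak caller scores lay near genes of varied roles, and 1 of them on a scaffold without a gene model. The highest score belonged to a peak of 456.1 tags at 2490285 to 2490625 of scaffold 16863. It lay 5146 bp from the start of EMX1, a homeobox gene of the developing forebrain. Its tags were 863 times the input, but the input there was 0.4 tags, the lowest value in the list, so this ratio is imprecise. A Multicilin peak lay 980 bp from this member. A member inside ABCC5, which encodes a membrane transporter, had 331.6 tags at 116461 to 116801 of scaffold 84584. Other members among the 10 with the highest scores were nearest to KLF6, a zinc finger factor (287.0 tags), MEIS1, a partner of Hox proteins (269.4 tags, inside the model), and the fatty acid elongase ELOVL7 (303.2 tags). MSX1, a homeobox target of BMP signalling, had a member of 270.7 tags at 2152653 to 2152993 of scaffold 146311, with a Multicilin peak 226 bp away. Near CITED2, a transcriptional coactivator, a member of 247.7 tags at 231582 to 231922 of scaffold 173270 had one 523 bp away. GIPC1, an adaptor of receptor trafficking, was 7766 bp from a member of 284.2 tags, and the member nearest to ZFP36L1, an RNA-decay factor, was 214891 bp from it. The remaining one, and the highest member of all at 517.1 tags, covered the first 256 bases of scaffold 179668, which has no gene model. It had 24.2 input tags, whereas the other 9 had at most 4.7.

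The limit of 1000 bp divides peaks at nearly the same distance from a start. Of the members just over it, those near RAVER1 and NOP56 both lay at 1003 bp and had heights of 17.6 and 23.0 tags. The 3 peaks just under it, near OTUD6B, SCAMP2 and RBM18, lay at 1000, 999 and 998 bp and had 13.5, 23.0 and 13.5 tags.

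Members lay mostly between genes and far from starts. Their centre was inside a gene model in 13338 cases, or 39.7% (95% Wilson interval 39.2 to 40.2%), against 44.6% (43.9 to 45.3%) of the shared distal peaks. Both classes come from the same Foxn4 alone library, so these intervals cover only counting error over its peaks. Neighbouring peaks need not be independent, and PCR copies are not independent molecules. A further 18433 members (54.9%) lay outside all models on a scaffold that has one. The median distance to the nearest start was 26744 bp for the members and 20035 bp for the shared distal peaks. Of the 31771 members with a start on their scaffold, 11.4% lay within 5000 bp of it, 12.4% between 5000 and 10000 bp, 44.6% between 10000 and 50000 bp, and 15.2% beyond 100000 bp. The last share was 9.80% of the shared distal peaks. Members were upstream of their nearest start in 43.1% of cases.

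A member was linked to the gene model whose start was nearest to its centre, if within 50000 bp. This gave 21742 linked members (64.7%) and 11529 linked models, or 47.3% of the 24383 models. Most linked models had 1 member (6141) or 2 to 4 (4822), 555 had 5 to 9 and 11 had 10 or more. Models with more members had more room around them. The stretch nearest to the start had a median of 42824.5 bp for models with 0 members and 88279 bp for those with 5 to 9. No peak shared with Multicilin was linked to 4555 of the linked models (39.5%). Such a peak was linked to the other 6974 of the 11529, against 12228 of all 24383 models and 5254 of the 12854 models with 0 members. Lacking a shared peak was thus less frequent among linked models than among all models. The X. laevis genome is duplicated, so many genes are present as a pair, and 6600 symbols had exactly 2 models. Both models were linked for 2046 of these symbols (31.0%), 1 of the pair for 2617 (39.7%) and neither for 1937 (29.3%).

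Among groups of genes, developmental regulators had the most members near them and structural genes of cilia the fewest. Of 43 models of neural crest regulators, 41 (95.3%) were linked, and of 96 models of retina and spinal cord regulators, 74 (77.1%) were. The latter list is called the retina and spinal cord program below, and whether Foxn4 acts on each of its genes was not tested. The lists overlap, with TFAP2A in this list and the epidermal one, and FOXI1 in the ionocyte and forkhead lists. Forkhead factors had 55 of 70 linked (78.6%), the Notch pathway 54 of 74 (73.0%), and BMP and TGF-beta signalling 60 of 84 (71.4%). Regulators of the multiciliated fate had 36 of 51 linked (70.6%), Wnt signalling 56 of 81 (69.1%) and epidermal genes 62 of 94 (66.0%). At the other end, 17 of 50 models of cilium motility (34.0%), 12 of 36 of centriole assembly (33.3%) and 18 of 42 of ciliary transport (42.9%) were linked, against 47.3% of all models.

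Scaled to the length of the stretch around the starts, the same developmental lists stood above all models and the 3 ciliary lists below. Neural crest genes had 4.46 members per 100 kb, epidermal genes 3.90, the Notch pathway 3.30, the retina and spinal cord program 3.23 and forkhead factors 3.19, against 1.69 over all models. Cilium motility had 1.15, centriole assembly 1.20 and ciliary transport 1.32. Shared distal peaks also stood above all models around these developmental lists, in a different order. They were densest around epidermal genes, at 4.82 per 100 kb, ahead of the Notch pathway at 3.25, neural crest genes at 3.07 and the retina and spinal cord program at 2.17, against 1.08 over all models. Cilium motility at 1.19 and centriole assembly at 1.14 were slightly above all models for shared distal peaks, and ciliary transport at 0.897 was below. Members made up 59.3% of the distal peaks of neural crest genes, 67.7% of those of mesoderm and endoderm genes, 44.7% of those of epidermal genes and 49.2% of those of cilium motility, against 60.9% over all models. Promoter peaks shared with Multicilin had another order, with 41 of the 50 motility models (82.0%), 71.4% of the transport models, 20.9% of the neural crest models and 27.6% of all models. No test was run on these lists.

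**Figure D2:**
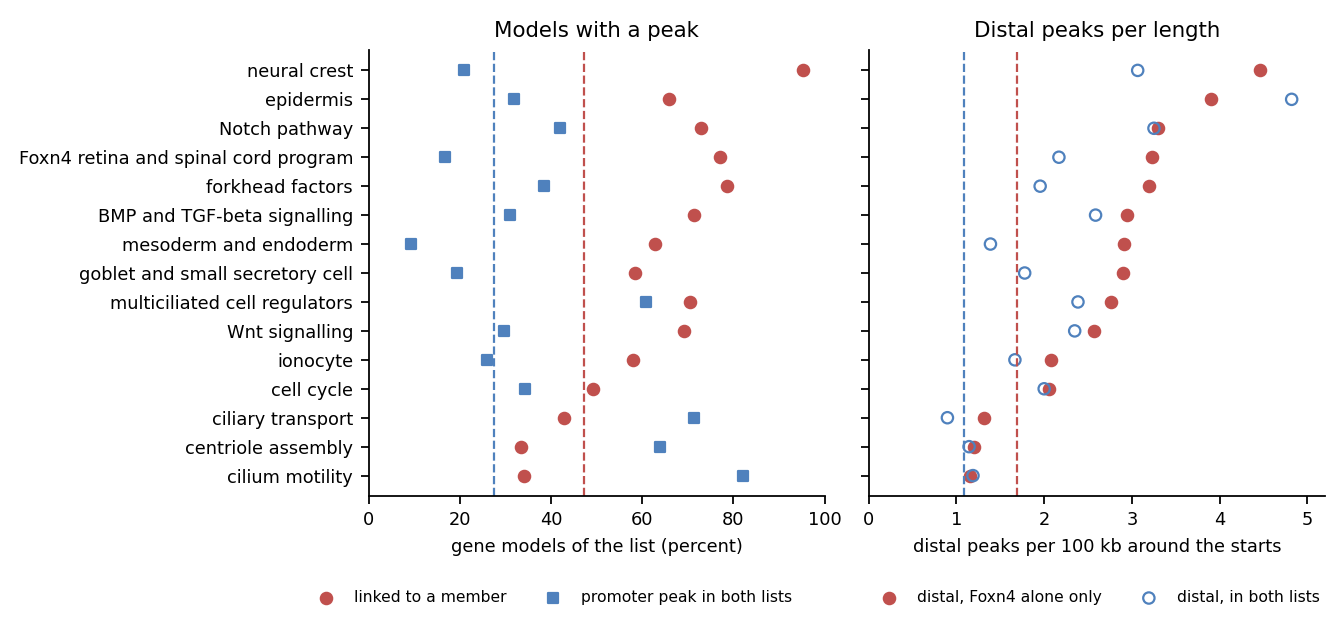
For 15 gene lists, the percentage of gene models linked to a member or with a promoter peak in both lists (left) and the distal peaks per 100 kb around the starts (right). Dashed lines mark all models, at 47.3% and 27.6% on the left and at 1.69 and 1.08 on the right. Neural crest genes stand at 4.46 members per 100 kb and cilium motility genes at 1.15.

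Individual loci held members and shared peaks side by side. GRHL3 encodes a grainyhead factor of the epidermal barrier, and its model at 643603 to 660000 of scaffold 133047 had 10 linked members, from 14.9 to 201.7 tags. The highest, at 670406 to 670746, lay 10576 bp upstream of the start, and the next, of 153.0 tags, lay 20324 bp upstream. Both exceeded the shared peak at the start itself, of 60.9 tags alone and 40.7 with Multicilin. The highest shared peak of this locus, at 26277 bp from the start, had 159.7 tags alone and 28.5 with Multicilin. It was thus higher than the second of these members. A Multicilin peak without overlap, of 46.8 tags, lay at -8136 bp from the start, between the highest member and one of 81.2 tags at 7713 bp. A second locus, chosen after its values were seen, holds a divergent pair of models with the symbol FOXI1, that of a regulator of ionocytes, on scaffold 1168. Between their starts lay a member of 257.2 tags at 1520178 to 1520518, and 1551 bp from a Multicilin peak. The shared peaks of this locus included one of 362.8 tags alone and 152.7 with Multicilin, at -8471 bp from the start of the model at 1510409 to 1513739, and one of 189.5 and 46.8 tags at -1755 bp.

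**Figure D3:**
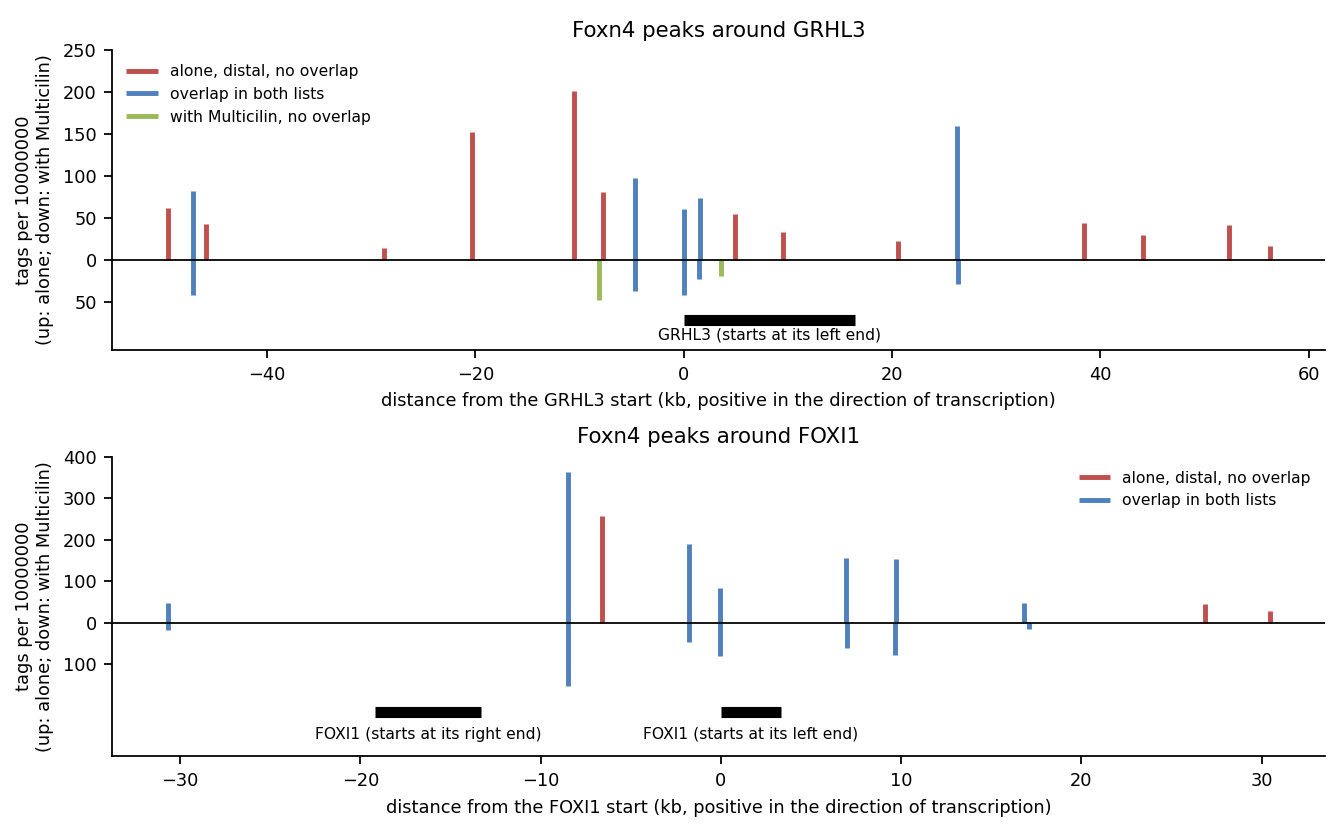
Peaks around GRHL3 (top) and a FOXI1 model (bottom) by distance from the start in kb, with height in tags per 10000000 drawn upward for Foxn4 alone and downward for Foxn4 with Multicilin. Red lines are members, blue lines peaks that overlap in both lists, green lines Multicilin peaks without overlap and black bars gene models. The highest members reach 201.7 tags at GRHL3 and 257.2 at FOXI1.

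RNA of the linked models was compared between each perturbed group and the Multicilin control with edgeR's quasi-likelihood test, fitted on all 9 libraries and 19058 models and adjusted by the method of Benjamini and Hochberg. A model was called at an adjusted p under 0.05. The 3 comparisons share the control libraries, and the labels do not say that replicates were separate clutches, so p-values reflect only how far these libraries spread, which can be technical variation. Of the 9487 linked models tested, 1115 were higher and 1140 lower with Foxn4 CRISPR, or 23.8% called, where 23.2% of all tested models were called, 12.6% higher and 10.7% lower. With the morpholino 2037 were higher and 2390 lower, or 46.7%, against 45.0% of all. Of all models tested, 23.9% were higher and 21.1% lower in that comparison. With Foxj1 CRISPR 1735 were higher and 2127 lower, or 40.7%, against 40.5% of all, of which 19.8% were higher and 20.7% lower. The share called among linked models was near that of all models in each comparison. Single libraries moved these counts. In the fits given next, the number called and the split by direction moved the same way over all models tested. The called linked models numbered 611 and 773 without Foxn4 CRISPR library 1 or 2, with 70.5% and 63.1% of them higher in place of 49.5%. They numbered 2822 without morpholino library 1, and 1776 and 2516 without Foxj1 CRISPR library 1 or 2.

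Direction shifted with the number of linked members, as did expression level and model length. Among models with 0 linked members, 26.3% of those tested were higher with the morpholino and 17.0% lower, and among models with 5 or more 20.7% were higher and 30.9% lower. The median log2 fold change went from 0.22 to -0.32. With Foxn4 CRISPR the median went from 0.03 to -0.15, and with Foxj1 CRISPR from 0.09 to -0.19. Over the same classes the median control level went from 3.71 to 12.8 CPM, the share of models tested from 74.5% to 92.0%, and the median span of the model from 18061.5 to 39226.5 bp. Among the 10 tested models with 10 or more members, more were called higher than lower with the morpholino, although their median was -0.53. The part of level, length and detection in the shift was not tested. Models linked to a member but to no shared peak had 26.2% higher and 17.8% lower with the morpholino, against 19.1% and 28.9% of those that also had a shared peak. Models with no linked Foxn4 alone peak of any class had 32.0% and 12.8%. Those linked to a shared peak but to no member had 22.1% and 21.0%. Models linked to a shared distal peak, with or without a member, had 19.6% higher and 27.5% lower, with a median of -0.19. All models linked to a member had 21.5% and 25.2%, with a median of -0.07. Whether the shift belongs to members rather than to linked peaks of any class was not tested.

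**Figure D4:**
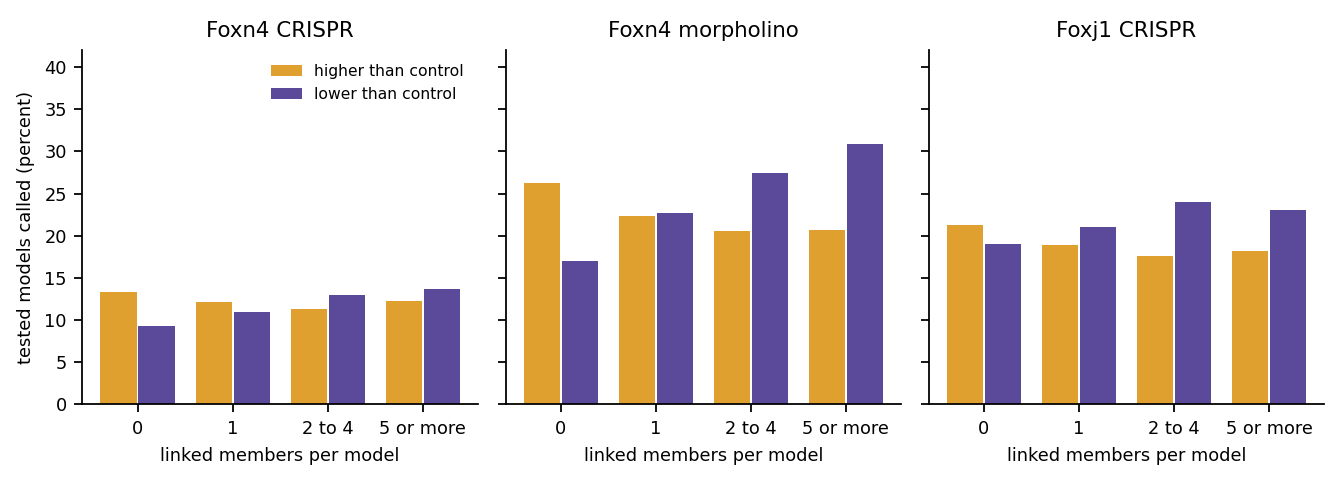
Percentage of tested gene models called higher (yellow) or lower (violet) than the Multicilin control, by the number of linked members, in each of 3 comparisons. With the morpholino the share called higher goes from 26.3% at 0 members to 20.7% at 5 or more, and the share called lower from 17.0% to 30.9%.

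Of the 12 models with the most members, 11 were tested, and 3 were called with Foxn4 CRISPR, 7 with the morpholino and 4 with Foxj1 CRISPR, where 23.2%, 45.0% and 40.5% of all tested models were. The counts for Foxn4 CRISPR and Foxj1 CRISPR are near those shares. GRHL3 on scaffold 133047 was at 356, 328 and 521 CPM in the control, 675 and 823 with Foxn4 CRISPR, 1333 and 661 with the morpholino, and 523 and 736 with Foxj1 CRISPR. Every perturbed library lay above the controls. GRHL3 rose with the morpholino (log2 1.31 ± 0.33 SE, edgeR adjusted p = 0.00928), but not without morpholino library 1 (0.71), and its values with Foxn4 CRISPR (0.90 ± 0.33, adjusted p = 0.0732) and Foxj1 CRISPR (0.65 ± 0.33, adjusted p = 0.139) were not called. The other GRHL3 copy, on scaffold 176467 with 6 members of 12.2 to 181.4 tags, was at 561, 652 and 802 CPM in the control and 865 to 1286 CPM in the perturbed libraries, again above every control. Its calls were the reverse. It rose with Foxn4 CRISPR (0.86 ± 0.24, adjusted p = 0.0285) and with Foxj1 CRISPR (0.78 ± 0.24, adjusted p = 0.0256) and was not called with the morpholino (0.63 ± 0.24, adjusted p = 0.0561). With uniquely matching reads this copy was called with the morpholino only (0.94), and both CRISPR calls were lost without control library 1 (0.76 and 0.69) or either library of the perturbed group. The Foxn4 CRISPR call was also lost without either Foxj1 CRISPR library, and the morpholino value was called without control library 3 (0.77) or morpholino library 2 (0.84). Whether the copies differ was not tested.

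IRX1, an Iroquois homeobox gene with 10 members, had 1.59, 1.24 and 0.803 CPM in the control and between 2.14 and 4.99 CPM in the 6 perturbed libraries, with no overlap. It rose with the morpholino (log2 1.79 ± 0.43, adjusted p = 0.00772) and with Foxj1 CRISPR (1.64 ± 0.43, adjusted p = 0.013). Both calls rested on single libraries, being lost without morpholino library 2 (1.46) and without Foxj1 CRISPR library 1 (1.48). PDE7A, a phosphodiesterase that breaks down cyclic AMP, also had 10 members, and rose with the morpholino (log2 1.74 ± 0.35, adjusted p = 0.00308). It rose with Foxj1 CRISPR as well (1.58 ± 0.35, adjusted p = 0.0055) and was not called with Foxn4 CRISPR (0.94 ± 0.35, adjusted p = 0.0796). The forkhead factor FOXO3, the homeobox gene MSX2 and the endodermal factor GATA5 had 10 members each. FOXO3 was not called in any comparison. MSX2 was not called either (-1.88 and -1.97 in the Foxn4 comparisons, adjusted p = 0.194 and 0.129), but was called in both without control library 1 (-2.39 and -2.49). Its control libraries 1 to 3 were at 0.507, 10.7 and 2.81 CPM, and the perturbed libraries at 0.785 to 3.97 CPM. That fit thus left out the lowest control and kept library 2, the highest. SEMA6D, a transmembrane semaphorin with 10 members and no shared peak, was at 4.50, 39.0 and 8.89 CPM in the control and 1.62 to 4.42 CPM elsewhere. SEMA6D fell in all 3 comparisons (-2.90, -2.06 and -3.31, adjusted p = 0.0289, 0.0483 and 0.0102), with -1.51, -0.69 and -1.92 without control library 2, the middle value not called. The Foxn4 CRISPR and Foxj1 CRISPR calls of SEMA6D were lost without either library of the perturbed group (-2.85 and -2.93, -3.42 and -3.21), and the morpholino call was lost without any 1 of the 6 perturbed libraries (-1.99 to -2.14). KAZN, a regulator of desmosome assembly, and C8orf42 also had 10 members each, and were called in opposite directions. KAZN fell with Foxn4 CRISPR and with the morpholino (-1.17 ± 0.33 and -1.20 ± 0.33, adjusted p = 0.0307 and 0.0142). C8orf42 rose in both (1.51 ± 0.36 and 1.59 ± 0.35, adjusted p = 0.0144 and 0.00539). GATA5, at most at 0.224 CPM, was below the filter on low counts. BMP4, the ligand that drives epidermal fate, had 9 members and was not called, at 12.7, 48.8 and 16.1 CPM in the control and 9.25 to 14.3 CPM elsewhere. The inhibitory SMAD6, with 8 members, was at no more than 22.7 CPM in any library and not called (adjusted p = 0.936, 0.512 and 0.984).

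The counts for the gene lists below are set beside all models tested, of which 12.6% were higher and 10.7% lower with Foxn4 CRISPR, 23.9% and 21.1% with the morpholino, and 19.8% and 20.7% with Foxj1 CRISPR. Linked models of the Notch pathway were called higher more often than lower. Of 49 tested, 8 rose and 2 fell with Foxn4 CRISPR, 17 rose and 2 fell with the morpholino, and 19 rose and 4 fell with Foxj1 CRISPR, with medians of 0.80, 0.76 and 1.02 on the log2 scale. The medians over all models tested were -0.03, 0.08 and 0.01. The shares higher were 16.3%, 34.7% and 38.8%, and the shares lower 4.08%, 4.08% and 8.16%. With either Foxn4 CRISPR library left out, 3 rose in that comparison and none was called lower. The receptor NOTCH1 had 7 members on scaffold 46073, from 20.3 to 78.5 tags. Its RNA was at 9.26, 20.0 and 8.83 CPM in the control, 35.6 and 39.8 with Foxn4 CRISPR, 29.1 and 73.7 with the morpholino, and 50.0 and 51.3 with Foxj1 CRISPR. All perturbed libraries lay above all controls. NOTCH1 rose with the morpholino (log2 2.02 ± 0.43, adjusted p = 0.00426; 1.19 and not called without morpholino library 2) and with Foxj1 CRISPR (1.99 ± 0.43, adjusted p = 0.00505). With Foxn4 CRISPR it rose by 1.57 ± 0.43 (adjusted p = 0.026), a call lost without control library 1 (1.41) or 3 (1.38) or either Foxn4 CRISPR library (1.67 and 1.49). The ligand JAG1, also with 7 members, was at 0.516 to 0.846 CPM in the control and 1.11 to 2.87 CPM elsewhere, and its values of 0.77 and 1.32 in the Foxn4 comparisons were not called (adjusted p = 0.324 and 0.0605). JAG1 rose with Foxj1 CRISPR (1.52 ± 0.52, adjusted p = 0.0378), a call lost without control library 1 or 3, Foxj1 CRISPR library 2 (0.79) or either Foxn4 CRISPR library.

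In the retina and spinal cord program, 14 of the 49 tested linked models rose and 8 fell with Foxn4 CRISPR, 22 rose and 7 fell with the morpholino, and 18 rose and 8 fell with Foxj1 CRISPR. The shares higher were 28.6%, 44.9% and 36.7%, above those of all models, and the shares lower 16.3%, 14.3% and 16.3%. The medians were 0.01, 0.24 and 0.25. Without Foxn4 CRISPR library 1 or 2 the falls in the first numbered 4 and 3, and without Foxj1 CRISPR library 1 or 2 those in the last numbered 4 and 5. PRDM1, a zinc finger repressor with roles in retina and neural plate border, had 8 members of 28.4 to 90.7 tags on scaffold 8630. It was at 0.317, 0.902 and 0.631 CPM in the control and between 3.42 and 9.23 CPM in the perturbed libraries, above every control. The log2 fold changes of PRDM1 were 2.80 ± 0.53, 3.31 ± 0.52 and 3.03 ± 0.52 with Foxn4 CRISPR, morpholino and Foxj1 CRISPR (adjusted p = 0.0055, 0.000999 and 0.00165), with the morpholino value at 2.44 without its library 1. LHX5, a LIM homeobox gene of forebrain and spinal interneurons, had 3 members. Its level went from 0.113 to 0.317 CPM in the control to 4.70 and 3.64 with Foxn4 CRISPR, 32.4 and 21.4 with the morpholino and 12.4 and 4.12 with Foxj1 CRISPR. LHX5 rose by 4.08 ± 0.58, 6.78 ± 0.58 and 5.08 ± 0.57 (adjusted p = 0.00143, 8.27e-05 and 0.00026), the last being 4.07 without Foxj1 CRISPR library 1.

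Of 32 tested neural crest models with a member, 2 rose and 3 fell with Foxn4 CRISPR, 9 rose and 6 fell with the morpholino, and 5 rose and 5 fell with Foxj1 CRISPR. With the morpholino 28.1% were higher and 18.8% lower, near the shares of all models, and the medians of the list were 0.04, 0.11 and -0.05. Without morpholino library 1 the count was 3 and 3, and without any other library between 4 and 7 rose and between 5 and 7 fell. The Foxn4 CRISPR count was 1 and 1 or 0 and 1 without Foxn4 CRISPR library 1 or 2, and the Foxj1 CRISPR count 2 and 3 or 2 and 5 without its library 1 or 2. SOX9, a neural crest and cartilage factor with 6 members, was at 0.571, 0.733 and 0.975 CPM in the control and 5.30 and 6.11 with the morpholino. Its Foxj1 CRISPR libraries, at 1.88 and 0.662, overlapped the control. SOX9 rose with the morpholino (log2 2.89 ± 0.49, adjusted p = 0.00146) and was not called with Foxn4 CRISPR (1.04 ± 0.53, adjusted p = 0.173).

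Of 56 tested linked epidermal models, 6 were higher and 7 lower with Foxn4 CRISPR, 9 and 20 with the morpholino, and 8 and 9 with Foxj1 CRISPR. The Foxn4 CRISPR shares, 10.7% and 12.5%, were near those of all models, and with the morpholino 16.1% were higher and 35.7% lower. The medians were -0.20, -0.35 and -0.12. Without Foxn4 CRISPR library 1 or 2 the first count was 3 and 1 or 2 and 1, and without Foxj1 CRISPR library 1 the last was 5 and 5. TP63, the factor of basal epidermal cells, had 7 members on scaffold 30987, of 32.5 to 131.3 tags. It was at 9.20, 83.3 and 19.7 CPM in control libraries 1 to 3, at 2.29 and 5.15 with Foxn4 CRISPR, 0.883 and 0.280 with the morpholino, and 0.289 and 0.956 with Foxj1 CRISPR. All perturbed libraries lay below the controls, and control library 2 lay far above the other controls. TP63 fell with the morpholino (log2 -6.12 ± 1.13) and with Foxj1 CRISPR (-5.89 ± 1.10; adjusted p = 0.00215 and 0.00257), with values of -4.75 and -4.52 without control library 2. Its fall with Foxn4 CRISPR (log2 -3.30 ± 0.92, adjusted p = 0.0278) stood at -1.93 without that control and was lost without either Foxn4 CRISPR library (-2.84 and -4.03). On the paralogous model of scaffold 45774, with 2 members, TP63 was not called (morpholino -1.80 ± 0.67, adjusted p = 0.0503).

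Ionocytes pump protons and salts, and goblet and small secretory cells release mucus and signals at the skin surface. Of 25 tested linked ionocyte models, 4 rose and 2 fell with Foxn4 CRISPR, 4 rose and 16 fell with the morpholino, and 4 rose and 8 fell with Foxj1 CRISPR. With the morpholino 16.0% were higher and 64.0% lower, and the median log2 fold change was -1.89, against 0.08 over all models. The median with Foxn4 CRISPR, -0.64, was 0.13 without control library 2, and without either morpholino library 9 fell with the morpholino. Without Foxj1 CRISPR library 1 or 2, 3 and 5 fell with Foxj1 CRISPR. Models with the symbol FOXI1 differed from each other. The model of scaffold 179377, with 6 members, had 11.4, 48.0 and 11.6 CPM in the control and 2.94 and 3.31 CPM with the morpholino, and fell (log2 -2.91 ± 0.70, adjusted p = 0.00746), with -1.88 without control library 2 and no call without either morpholino library (-2.84 and -3.01). The model at 1510409 to 1513739 of scaffold 1168, with 3 members, had 13.8, 4.90 and 13.5 CPM in the control, 72.9 and 57.0 with Foxn4 CRISPR, 226 and 179 with the morpholino, and 141 and 112 with Foxj1 CRISPR. Every perturbed library there exceeded every control, and which of these models encodes the ionocyte regulator was not determined.

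Of 15 tested linked models of secretory cells, 2 rose and 3 fell with Foxn4 CRISPR, 2 rose and 9 fell with the morpholino, and 2 rose and 6 fell with Foxj1 CRISPR. The shares higher were 13.3% in each, near that of all models with Foxn4 CRISPR. The falls were 3, 9 and 6 of 15, where 10.7%, 21.1% and 20.7% of all models fell. The medians were -0.51, -1.64 and -0.87. Without morpholino library 1, 4 fell with the morpholino, and without either Foxn4 CRISPR library none was called higher with Foxn4 CRISPR. CAPN9, a calpain protease of mucus-secreting tissue, had 6 members of 12.2 to 54.1 tags on scaffold 121003 and no shared peak linked to it. It was at 137, 143 and 103 CPM in the control, 17.8 and 30.5 with Foxn4 CRISPR, 1.77 and 2.97 with the morpholino, and 8.31 and 14.8 with Foxj1 CRISPR. The groups did not overlap, and CAPN9 fell in all 3 comparisons (log2 -2.40 ± 0.37, -5.72 ± 0.45 and -3.47 ± 0.39, adjusted p = 0.00213, 5.84e-05 and 0.000268). XBP1, a regulator of the secretory pathway with 6 members, went the other way. Its RNA stood at 95.5, 154 and 111 CPM in the control, 317 and 436 with the morpholino and 335 and 291 with Foxj1 CRISPR. XBP1 rose by 1.65 ± 0.26 and 1.38 ± 0.26 (adjusted p = 0.00102 and 0.00263). With Foxn4 CRISPR, at 225 and 195 CPM, it was called by a small margin (0.81 ± 0.26, adjusted p = 0.0478), lost without control library 1 or 3, either Foxn4 CRISPR or either Foxj1 CRISPR library (0.69 to 0.91).

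Linked genes of cilia fell or were not called, with few exceptions. Of 17 tested models of cilium motility with a member, 7 fell with Foxn4 CRISPR, 15 with the morpholino and 16 with Foxj1 CRISPR, and 0 rose by edgeR, by DESeq2 or in any fit without 1 library, nor was any higher at an unadjusted p under 0.05. The number that fell with Foxn4 CRISPR was 13 without control library 2, and 2 and 3 without Foxn4 CRISPR library 1 or 2. TEKT3, a tektin of ciliary microtubules, had 3 members on scaffold 81941, of 14.9 to 69.0 tags and 18512 to 26974 bp from the start, and a shared promoter peak. It was at 349, 238 and 395 CPM in the control, 35.2 and 43.1 with Foxn4 CRISPR, 11.9 and 30.2 with the morpholino, and 7.74 and 15.8 with Foxj1 CRISPR, without overlap. TEKT3 fell in all 3 (log2 -3.06 ± 0.47, -3.95 ± 0.49 and -4.80 ± 0.52, adjusted p = 0.00205, 0.000338 and 0.000218), and stood at -4.79 without morpholino library 2 and at -5.40 without Foxj1 CRISPR library 2. Of 17 linked transport models, 2 fell with Foxn4 CRISPR, 8 fell and 1 rose with the morpholino, and 15 fell with Foxj1 CRISPR. The transport shares lower were 11.8%, 47.1% and 88.2%, where all models had 10.7%, 21.1% and 20.7%, so the first was near that of all models. The Foxn4 CRISPR count was 0 without control library 1 or 3 or either Foxn4 CRISPR library, where 6 were lower at an unadjusted p under 0.05 with all libraries and 5 by DESeq2. Without control library 2 these falls numbered 8, 14 and 16, and without morpholino library 1 the morpholino gave 3. Without Foxj1 CRISPR library 1, Foxj1 CRISPR gave 8.

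Of 35 tested regulators of the multiciliated fate with a member, 5 rose and 1 fell with Foxn4 CRISPR, 12 rose and 1 fell with the morpholino, and 8 rose and 3 fell with Foxj1 CRISPR. The shares higher with Foxn4 CRISPR (14.3%) and Foxj1 CRISPR (22.9%) were near those of all models, and that with the morpholino was 34.3%. The shares lower were 2.86%, 2.86% and 8.57%, and the medians 0.20, 0.79 and 0.23. Without Foxn4 CRISPR library 1, 1 rose in that comparison, and without control library 2, 8. Likewise without morpholino library 1, 7 rose with the morpholino. GMNN, or geminin, an inhibitor of replication licensing that binds Multicilin's family, had 5 members of 12.2 to 43.3 tags on scaffold 23301. It was at 3.17, 5.24 and 3.56 CPM in the control, 17.3 and 12.7 with the morpholino, and 15.6 and 11.4 with Foxj1 CRISPR, and rose by 1.90 ± 0.32 and 1.76 ± 0.32 (adjusted p = 0.00136 and 0.00223). The Foxn4 CRISPR libraries, at 8.55 and 6.89 CPM, gave GMNN 0.95 ± 0.33 (adjusted p = 0.0605), called without control library 2 (1.20). MCIDAS, which encodes Multicilin, had 3 members of 71.7 to 105.6 tags at its model on scaffold 337825, but injected and endogenous RNA were not told apart, so its level was not read.

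CDC25B, the phosphatase that releases cells into mitosis, had 7 members on scaffold 27038, of 14.9 to 82.6 tags. Its RNA was at 114, 77.5 and 104 CPM in the control, 644 and 644 with Foxn4 CRISPR, 1014 and 1356 with the morpholino, and 604 and 679.9 with Foxj1 CRISPR. The perturbed libraries all lay above the controls. CDC25B rose by 2.71 ± 0.24, 3.59 ± 0.25 and 2.71 ± 0.24 on the log2 scale (adjusted p = 0.000149, 5.11e-05 and 0.000116), and kept each call in every fit without 1 library. Of 34 tested cell cycle models with a member, 6 rose and 3 fell with Foxn4 CRISPR, 15 rose and 4 fell with the morpholino, and 11 rose and 3 fell with Foxj1 CRISPR. The shares higher were 17.6%, 44.1% and 32.4% and the shares lower 8.82%, 11.8% and 8.82%, where all models had 12.6%, 23.9% and 19.8% higher and 10.7%, 21.1% and 20.7% lower. The medians were 0.40, 0.49 and 0.48. Leaving out either Foxn4 CRISPR library gave 4 higher and no lower in that comparison, and leaving out control library 2 gave 10 and 5. Leaving out Foxj1 CRISPR library 1 gave 6 higher and no lower with Foxj1 CRISPR. With the morpholino, the lowest count, 10 higher and no lower, came without morpholino library 1.

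A pair of inhibitors of differentiation with members went opposite ways. ID4 had 7 members, of 18.9 to 81.2 tags, and was at 48.1, 53.4 and 53.3 CPM in the control, 158 and 88.1 with Foxn4 CRISPR, 146 and 77.2 with the morpholino, and 379.5 and 278 with Foxj1 CRISPR. ID4 rose with Foxj1 CRISPR (log2 2.67 ± 0.33, adjusted p = 0.000371). Its rises of 1.25 and 1.11 in the Foxn4 comparisons (adjusted p = 0.0217 and 0.0186) were lost without control library 1 (1.22 and 1.06) and without library 1 of the perturbed group (0.79 and 0.58). ID2, with 6 members of 21.7 to 65.0 tags, was at 66.0, 123 and 122 CPM in the control and between 26.3 and 44.5 CPM in the perturbed libraries. ID2 fell with the morpholino (-1.59 ± 0.30, adjusted p = 0.00246) and with Foxn4 CRISPR (-1.82 ± 0.31, adjusted p = 0.00329), the latter call lost without Foxn4 CRISPR library 1 (-1.66). Its fall with Foxj1 CRISPR (-1.25 ± 0.30, adjusted p = 0.00825) was lost without Foxj1 CRISPR library 1 or 2 (-1.27 and -1.22).

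The remaining lists were signalling pathways, forkhead factors, centriole genes and genes of the inner germ layers. Of 45 models of BMP and TGF-beta signalling, 4 rose and 2 fell with Foxn4 CRISPR, 11 and 6 with the morpholino, and 12 and 3 with Foxj1 CRISPR. The shares higher, 8.89%, 24.4% and 26.7%, were below, near and above those of all models (12.6%, 23.9% and 19.8%), and the medians were 0.14, 0.24 and 0.43. Without 1 library in turn the higher counts ranged from 3 to 9, 7 to 16 and 5 to 17. Of 44 Wnt models the counts were 9 and 2, 7 and 7, and 11 and 5, with higher counts of 2 to 9, 5 to 12 and 8 to 16 without 1 library in turn, the lowest of the first without Foxn4 CRISPR library 2. The Wnt shares higher were 20.5% with Foxn4 CRISPR and 15.9% with the morpholino, above and below those of all models, and the medians in the 3 comparisons 0.13, 0.11 and 0.44. Of 38 forkhead models they were 7 and 6, 6 and 9, and 7 and 10, and the order of higher and lower with the morpholino turned to 8 and 5 without morpholino library 1 and 10 and 8 without control library 2. The forkhead shares higher were 18.4%, 15.8% and 18.4%, and the medians -0.10, -0.04 and -0.04. Of 12 centriole models 1 rose in each comparison, and 3 fell with the morpholino and with Foxj1 CRISPR. Genes of mesoderm and endoderm, tissues that pure caps lack, had a median control level of 0.211 CPM over 43 models, against 5.24 over all models. Of these 43, 24 were tested. Of the 16 tested that were linked, 9 rose with Foxn4 CRISPR, 8 rose and 1 fell with the morpholino, and 9 rose with Foxj1 CRISPR. The shares higher were 56.2%, 50.0% and 56.2%, with medians of 1.92, 1.40 and 2.86. The first count was 2 and 3 without Foxn4 CRISPR library 1 or 2 and 5 without control library 1, the morpholino gave 5 higher without its library 2, and the first was 4 of 11 tested when uniquely matching reads were counted.

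Among the linked models with at least 5 CPM on average, 6514 in all, 634 (9.73%) were higher and 759 (11.7%) lower in both Foxn4 comparisons with no overlap between libraries. Over all 12607 named models at that level the shares were 10.2% and 9.76%, and since both comparisons use the same controls, a share in both is not read as agreement. POU5F1, a gene of the Oct4 family of pluripotency factors, was among the 10 largest rises and had 2 members, of 93.4 and 73.1 tags, on scaffold 37448. It was at 1.08, 0.564 and 2.01 CPM in the control, 24.9 and 23.6 with Foxn4 CRISPR, 166 and 251 with the morpholino, and 58.2 and 37.4 with Foxj1 CRISPR. POU5F1 rose by 4.31 ± 0.43, 7.41 ± 0.47 and 5.29 ± 0.44 (adjusted p = 0.000289, 4.69e-05 and 9.58e-05), with 4.90 and 5.89 for the CRISPR groups without control library 3. HESX1, a homeobox gene of the anterior neural plate with 1 member, rose from 0.282 to 0.803 CPM in the control to 9.39 and 6.57 with Foxn4 CRISPR and 19.0 and 17.6 with the morpholino. Its log2 fold changes were 4.06 ± 0.48 and 5.26 ± 0.49 (adjusted p = 0.000652 and 9.97e-05), or 4.71 and 5.89 without control library 3. With Foxj1 CRISPR HESX1 was at 4.34 and 2.21 CPM and rose by 2.78 ± 0.49 (adjusted p = 0.00187). CRABP2, which carries retinoic acid to its receptor, had 1 member of 36.5 tags and was at 0.190, 0.169 and 3.84 CPM in the control against 65.3 to 104 CPM elsewhere. Its rise of 5.78 ± 0.90 with Foxn4 CRISPR (adjusted p = 0.00221) was 8.71 without control library 3. FMO5, a flavin monooxygenase with 1 member, had 3 counts in all control libraries together. Its ratio over the control was 186 with Foxn4 CRISPR (95% interval 62.8 to 907), 135 with the morpholino (45.4 to 657) and 150.5 with Foxj1 CRISPR (50.9 to 735), and these intervals cover counting error only.

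ASTL, an astacin-like metalloprotease, was the most abundant of the 10 largest falls. It had 3 members on scaffold 939, of 12.2 to 69.0 tags, and stood at 1255, 1778 and 1488 CPM in the control, 15.2 and 27.5 with Foxn4 CRISPR, 1.57 and 3.70 with the morpholino, and 3.83 and 10.6 with Foxj1 CRISPR. ASTL fell in all 3 comparisons (log2 -6.14 ± 0.58, -9.11 ± 0.67 and -7.71 ± 0.63, adjusted p = 0.00019, 5.26e-05 and 9.33e-05), and stood at -9.90 without morpholino library 2 and -8.62 without Foxj1 CRISPR library 2. ITGA6, a laminin receptor subunit of basal cells with 2 members of 12.2 and 18.9 tags, was at 200.4, 148 and 107 CPM in the control and 5.66 to 11.1 CPM elsewhere. ITGA6 fell in all 3 (log2 -4.18 ± 0.39, -3.91 ± 0.38 and -4.46 ± 0.40, adjusted p = 0.000189, 0.000125 and 0.000116). HOXA2, a hindbrain Hox gene with 4 members of 39.3 to 60.9 tags, was at 20.2, 18.8 and 15.3 CPM in the control and at most 0.505 CPM elsewhere. Its control level was higher than that with Foxn4 CRISPR by a ratio of 189 (95% interval 52.1 to 1560) and than that with Foxj1 CRISPR by 494 (88.5 to 19538). BMP1, a protease of the tolloid family with 3 members and no shared peak, was at 16.2, 20.9 and 13.3 CPM in the control and had 0 counts with the morpholino, at least 157-fold lower against a floor of 3 counts over the group. FOXQ1, a forkhead factor of small secretory cells in the frog skin, had 4 members of 13.5 to 47.4 tags and was at 10.9, 21.9 and 14.4 CPM in the control against 0.0982 to 1.32 CPM elsewhere. FOXQ1 fell with Foxn4 CRISPR (log2 -4.26 ± 0.58) and with the morpholino (-6.42 ± 0.69; adjusted p = 0.00116 and 0.000179), with -5.27 and -3.56 without Foxn4 CRISPR library 1 or 2 and -7.20 without morpholino library 2.

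**Figure D5:**
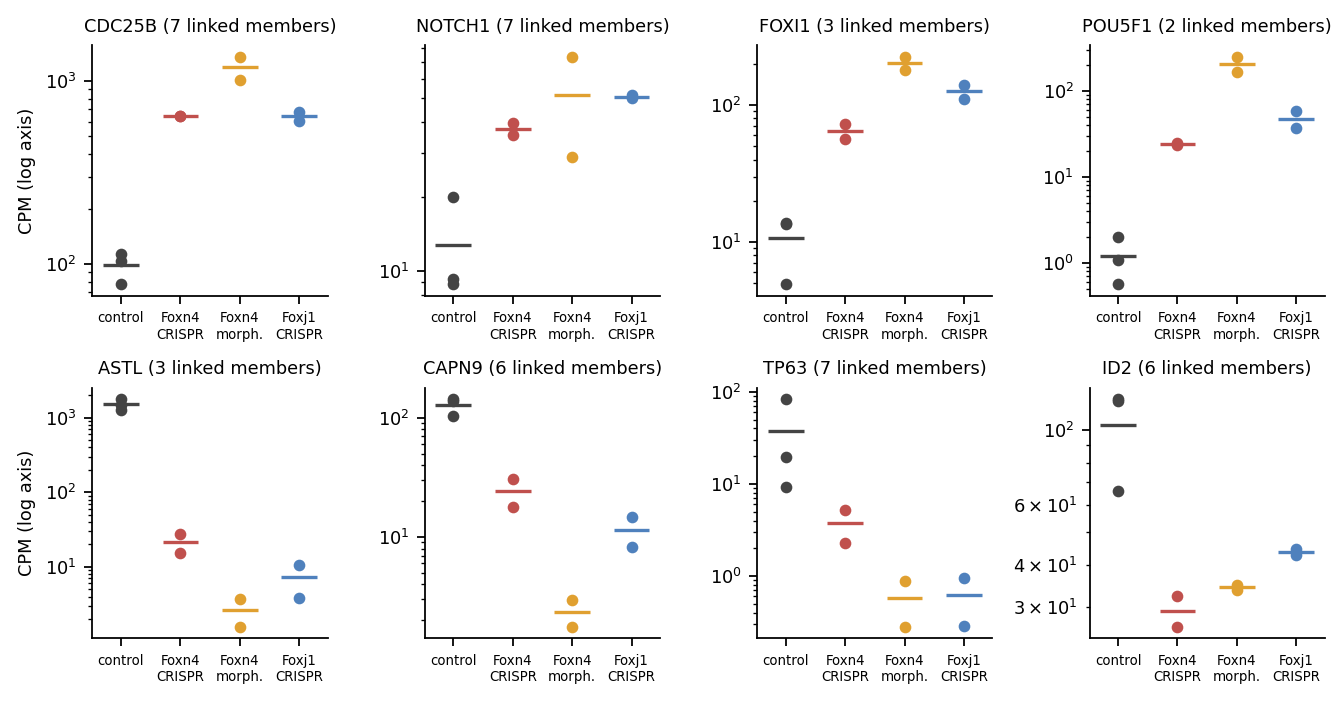
RNA level in CPM (log axis) of 8 genes with linked members in each of the 9 libraries, with points for libraries and a line for the group mean. CDC25B goes from 77.5 to 114 CPM in the control to 604 or more elsewhere, CAPN9 from 103 to 143 CPM to 30.5 or less, and TP63 shows control library 2 at 83.3 CPM against 9.20 and 19.7. The FOXI1 panel is the model at 1510409 of scaffold 1168.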

How the data were processed

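The members and the gene lists were chosen with earlier results of these data known. HOMER peaks were called by the authors separately for either ChIP library, per the file headers, at a false discovery rate of 0.001 and with 4 times the tags of the input and of the surrounding 10000 bp, against the same re-used input of Myb with Multicilin for both. The deposited peak lists hold tag counts, a signal of tags scaled to 10000000, a score, p-values and ratios (fold enrichment against input and against local tags). These are the authors' own values and serve only as descriptions of peaks. Peaks with 1 shared base were taken as overlapping. Coordinates are 1-based on the version 7.1 scaffolds, the build named in the series' design text. No genome sequence of that build was used here, so the planned search for forkhead motifs was not run. The annotation gives gene model starts and ends, not exons or UTRs.

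The deposited RNA files are, per the file headers, output of eXpress with estimated counts per gene model, in which reads matching several models are shared out, and counts of uniquely matching reads. The split between near-identical paired copies is therefore uncertain, and per the labels' protocols the poly-A libraries were not stranded, so overlapping antisense genes cannot be told apart. Bowtie2, STAR, eXpress, DESeq and HOMER are named in the submitters' processing notes, with versions not given in the sources used here. After rounding, estimated counts entered edgeR 4.0.16, run under R 4.3.3 (TMM, default low-count filter, quasi-likelihood test, group as the only term, 5 residual degrees of freedom, biological coefficient of variation 0.31). DESeq2 1.42.0 was an alternative, and the fit was tested on simulated data. CPM are scaled by the TMM factors. Models without a symbol held 1.70 to 2.43% of the counts. Peaks were handled with Python 3.11.15, pandas 2.3.3 and scipy 1.17.1, and figures drawn with matplotlib 3.10.9. The authors' deposited comparison tables, with their p-values and log2 values, and the re-used input libraries were not used here.

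Genes were named by rule. These were the nearest models of the 10 members with the highest score, the 12 models with the most members, the 10 largest rises and falls among linked models of at least 5 CPM called in both Foxn4 comparisons without overlap of libraries, up to 4 models per gene list with the most members, and FOXN4, FOXJ1 and MCIDAS. A selection of them is printed, and some are not reported here. The FOXI1 models of scaffold 1168 were added after their values were seen.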

Additional observations from a re-analysis of the deposited data

How the results depend on the processing

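The number of members was 33103 when a Multicilin peak within 500 bp counted as overlap, 29969 for a distal limit of 5000 bp, 25959 at 8 times the input and 31771 on scaffolds with a gene model, the last chosen after seeing the data. The share inside a gene model was 37.4% for the 5000 bp limit and 41.98% on scaffolds with a model, against 39.7%. With a link within 10000 bp, 5985 models were linked and, by this construction, fewer were called, at 1178, 2345 and 1995 with Foxn4 CRISPR, morpholino and Foxj1 CRISPR, against 2255, 4427 and 3862. Under that link 6 models had 5 or more members, with a median log2 fold change of 0.12 with Foxn4 CRISPR in place of -0.15. Leaving out 1 library in turn gave 611 to 2578, 2822 to 4653 and 1776 to 4186 called linked models. A lone remaining library was then assumed to vary like the other groups. In each of these fits the percentage called among linked models was slightly above that among all models tested. DESeq2 gave 2766, 4632 and 4173, and uniquely matching reads gave 1891, 4003 and 3636. NKX2-5 on scaffold 18892 turned to -0.21 with the morpholino when uniquely matching reads were counted, and the cause was not tested.

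Perturbed libraries did not deviate together with the control library of the same replicate number (correlations of deviations -0.142 to -0.017). With 2 libraries in a perturbed group, their deviations are equal and opposite by construction. The correlations therefore cannot decide whether the numbers pair perturbed libraries with controls. Whether the numbers pair the perturbed libraries with each other was not tested. With the replicate number as a block, 1785, 3833 and 3263 linked models were called. These were 18.8%, 40.4% and 34.4% of the linked models tested, against 17.2%, 37.9% and 33.0% of all.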
